A study of Mus musculus with 12 samples.

Results

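Tumor necrosis factor (TNF) ligands and receptors were followed in J774A.1 cells, a mouse macrophage line, that were WT or ACAT1 KO and were either left unstimulated or treated with LPS. The 10 members, 6 ligands (Tnf, Tnfsf9, Tnfsf10, Tnfsf12, Tnfsf13b and Tnfsf15) and 4 receptors (Tnfrsf1a, Tnfrsf1b, Fas and Tnfrsf11a), were chosen by gene symbol from the 16699 genes listed in the count tables of both states. The choice was made with earlier results of these data known, so counts of members set against all genes describe these members only. RNA-seq was performed on 12 libraries in 4 groups of 3, namely WT, ACAT1 KO, WT LPS and ACAT1 KO LPS. LPS, a cell wall component of Gram-negative bacteria that is sensed through the receptor Tlr4, was given at 100 ng/ml for 2 h, and the unstimulated groups received no treatment. ACAT1 KO cells came from transfection with a vector carrying Cas9, GFP and a guide RNA against an exon of Acat1, the gene of the mitochondrial acetyl-CoA acetyltransferase, whereas WT cells received that vector without a guide. Both genotypes were sorted for GFP and grown out as clonal populations, so all 4 groups had received Cas9. The labels only number the 3 samples of a group. The study describes the unstimulated samples of a genotype as different lines, so p-values measure the spread between lines there, and whether the LPS samples came from the same lines is not stated in the sources used here.

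TNF superfamily ligands assemble as trimers at the cell surface, from which some are released by proteases such as Adam17, and cluster receptors of the TNF receptor superfamily on the same or on neighbouring cells. Receptors with a death domain, such as Tnfrsf1a and Fas, can recruit adaptors that start either NF-kB signaling or caspase-driven cell death, whereas many of the others bind TRAF adaptors. Macrophages are a main source of Tnf, whose transcript is made early after LPS and is destabilized by Zfp36 and related RNA-binding proteins.

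The members are spread over 8 chromosomes of GRCm38. Tnf lies on chromosome 17 from 35199381 to 35202007 (minus strand) and Tnfsf9 on the same chromosome from 57105325 to 57107757 (plus strand). Tnfsf15 (minus strand, 63727084 to 63745113) and Tnfrsf1b (minus strand, 145213463 to 145246870) share chromosome 4. Tnfsf10 lies on chromosome 3 from 27317028 to 27342427 (plus strand), Tnfsf12 on chromosome 11 from 69686250 to 69695849 (minus strand) and Tnfsf13b on chromosome 8 from 10006467 to 10039072 (plus strand). Of the other receptors, Tnfrsf1a occupies chromosome 6 from 125349362 to 125362484, Fas chromosome 19 from 34290666 to 34327772 and Tnfrsf11a chromosome 1 from 105780718 to 105847981, each on the plus strand. Exons of Tnfsf9 overlap those of Gm11110 on the other strand, which had 554 to 936 counts per unstimulated and 265 to 477 per LPS library, against 3629 to 9003 and 13989 to 30609 counts for Tnfsf9. Exons of Tnfsf12 overlap on the same strand those of the readthrough gene Tnfsfm13, which had 35 to 117 counts per library. The library kit keeps the strand, but whether the counting used it is not given in the sources used here, and the values of Tnfsf9 and Tnfsf12 are uncertain to that extent.

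Promoters are shown for the 4 members whose transcripts rose the most with LPS in WT cells. Each run holds the bases upstream of the RefSeq start that also lie upstream of the start in the gene annotation, from RefSeq on GRCm38.p6, read 5′ to 3′ along the strand of the gene. Capitals mark the TATA box (TATAAA) of Tnf, 29 to 24 bases before its RefSeq start, and a match to the AP-1 letters (TGANTCA) in Fas, 211 to 205 bases before its RefSeq start. The runs cover chr17:35202008-35202257 (minus strand), chr4:63745114-63745309 (minus strand), chr3:27316827-27317027 (plus strand) and chr19:34290409-34290658 (plus strand), in the order printed.
Tnf: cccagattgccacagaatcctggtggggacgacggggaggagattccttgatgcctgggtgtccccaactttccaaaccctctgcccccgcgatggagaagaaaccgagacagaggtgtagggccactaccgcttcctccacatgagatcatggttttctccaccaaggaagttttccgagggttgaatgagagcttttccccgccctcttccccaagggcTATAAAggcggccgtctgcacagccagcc
Tnfsf15: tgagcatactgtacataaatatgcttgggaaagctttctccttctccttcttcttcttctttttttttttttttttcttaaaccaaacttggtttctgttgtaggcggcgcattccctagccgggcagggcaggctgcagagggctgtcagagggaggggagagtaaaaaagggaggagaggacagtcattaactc
Tnfsf10: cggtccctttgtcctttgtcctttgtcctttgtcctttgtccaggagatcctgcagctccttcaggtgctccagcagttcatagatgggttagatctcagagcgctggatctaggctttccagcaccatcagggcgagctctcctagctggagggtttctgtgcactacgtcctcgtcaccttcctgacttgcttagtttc
Fas: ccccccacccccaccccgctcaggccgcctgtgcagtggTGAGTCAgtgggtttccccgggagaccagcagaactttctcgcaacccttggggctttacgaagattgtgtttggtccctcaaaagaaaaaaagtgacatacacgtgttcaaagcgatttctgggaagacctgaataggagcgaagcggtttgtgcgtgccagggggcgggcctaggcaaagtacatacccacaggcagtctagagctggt
Motifs were searched on both strands in the 250 bases upstream of each RefSeq start. A window was found for 8 of the 10 members, 9 windows in all, and Tnfsf9 and Tnfsf12 had none. TATAAA was matched in 1 of these members, Tnf, and in 12.4% of all 32851 windows. TGANTCA was matched in 2 members, Fas and the downstream window of Tnfsf13b, and in 6.75% of all windows. The kappaB consensus was matched in 0 of the 8 members and in 7.25% of all windows, which says only that those letters are not in these windows.

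Totals ranged from 56948593 to 167280149 counts per library. The targeted transcript, Acat1, averaged 98.8 ± 15.6 (SD, n = 3 here and for the next values) CPM in WT, 26.8 ± 1.83 in ACAT1 KO, 81.9 ± 15.5 in WT LPS and 19.1 ± 0.743 CPM in ACAT1 KO LPS libraries, which matches the genotype labels. All 10 macrophage markers examined, among them Csf1r, Cd68 and Lyz2, were counted in every library, summing to 9001 to 9944 CPM in WT, 10176 to 11576 in ACAT1 KO, 8829 to 9184 in WT LPS and 9160 to 10618 in ACAT1 KO LPS. Lyz2 alone averaged 6116 CPM in WT and 6883 CPM in ACAT1 KO, so the sums mostly follow that gene. Of the 26 markers of T cells, B cells, neutrophils, fibroblasts and epithelial cells, 4 were listed in both tables and another 3 in the LPS table alone. The 4 were Lck (5.19 to 10.99 CPM), Cd79a (0.0305 to 0.937 CPM), S100a8 (2.05 to 5.14 CPM) and Pdgfra. The last was at 1.19 to 1.67 CPM in WT and 1.14 to 1.36 CPM in ACAT1 KO libraries. After LPS it was at 5.53 to 6.49 CPM in WT LPS and 11.3 to 12.9 CPM in ACAT1 KO LPS. WT replicates 1 and 2 and ACAT1 KO replicate 2 stood apart, with 0.561% to 0.652% of counts on noncoding genes that lie antisense to exons, against at most 0.440% in the other 9 libraries.

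The levels of the members in unstimulated WT cells fell into 3 tiers per length of transcript. Levels are given as CPM, counts scaled to library size by TMM over all 12 libraries, and were, where genes are compared with each other, divided by the length of the merged exons. Tnfrsf1a, the widely expressed death domain receptor for TNF, was the highest at 51.1 ± 3.46 CPM per kb (SD, n = 3). Tnfsf9, the ligand of the costimulatory receptor 4-1BB, followed at 45.6 ± 4.41 CPM per kb, then Tnfrsf1b, the TNF receptor without a death domain, at 35.4 ± 0.532 and Tnf at 34.4 ± 9.15 CPM per kb. Mean ± SD overlapped between Tnfrsf1a and Tnfsf9 and between Tnfrsf1b and Tnf, so these neighbours did not differ beyond their spread. A lower tier held Tnfrsf11a, the receptor RANK, at 5.35 ± 0.216, Tnfsf12, the ligand TWEAK, at 3.64 ± 0.147 and the death receptor Fas at 3.43 ± 0.139 CPM per kb, of which the last 2 overlapped. The lowest members were Tnfsf13b, the B cell survival factor BAFF, at 0.948 ± 0.130, Tnfsf15, the ligand TL1A, at 0.652 ± 0.0992 and Tnfsf10, the death ligand TRAIL, at 0.433 ± 0.0622 CPM per kb.

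LPS reordered the members. In WT LPS cells Tnf led at 1161 ± 139 CPM per kb (SD, n = 3) and ranked 25 of 16679 genes by this measure, against rank 1405 in unstimulated WT cells. Tnfrsf1b was next at 374 ± 101 CPM per kb, rank 131, followed by Tnfsf9 at 132 ± 13.3, Tnfrsf1a at 73.1 ± 2.87 and Fas at 46.5 ± 5.07 CPM per kb. Below them were Tnfsf15 at 24.5 ± 4.79 and Tnfrsf11a at 18.1 ± 3.08 CPM per kb, whose mean ± SD overlapped, then Tnfsf10 at 9.16 ± 2.68, Tnfsf12 at 3.71 ± 0.225 and Tnfsf13b at 1.47 ± 0.110 CPM per kb. The order of the 10 members was the same in ACAT1 KO LPS cells, where Tnf ranked 15 and Tnfrsf1b 115. In bulk RNA, a larger share of cells with a transcript and more of it per cell cannot be told apart.

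**Figure D1:**
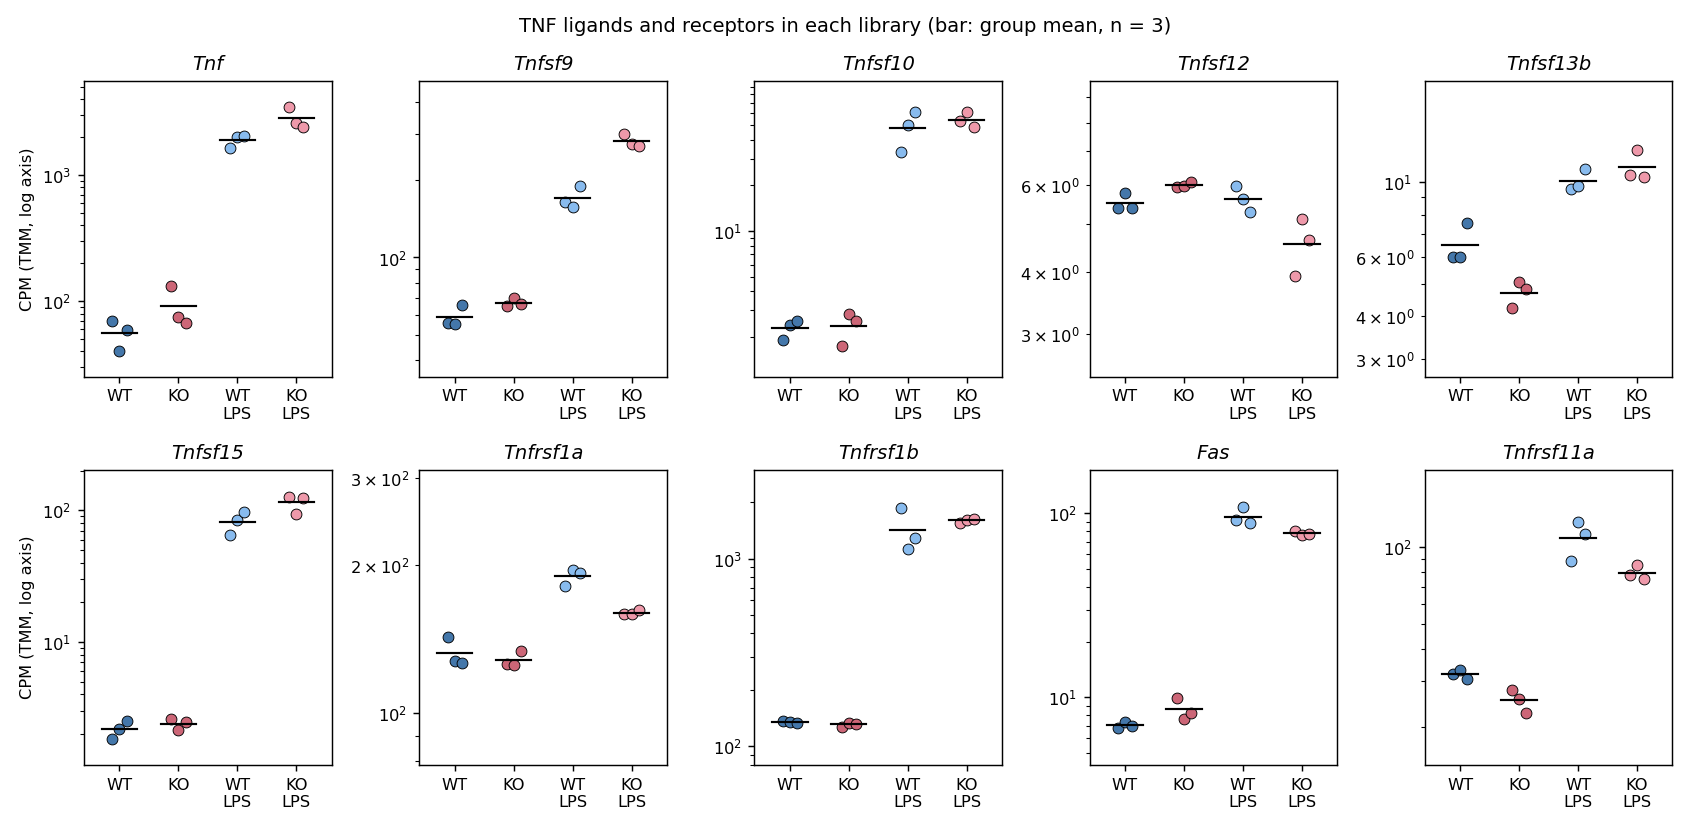
CPM of each member in each of the 12 libraries on a log axis, 3 points per group from replicate 1 on the left to replicate 3 on the right, with a bar at the group mean. The scale differs between panels. In 9 of the 10 panels both LPS groups lie above both unstimulated groups, and Tnfsf12 stays between 3.93 and 6.07 CPM throughout.

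Of the 10 members, 9 rose with LPS in both genotypes, and none fell in WT cells. In WT cells, 9 of 10 were higher after LPS (adjusted p under 0.05 by the quasi-likelihood test of edgeR, adjusted by Benjamini-Hochberg), where 29.3% of 16535 genes were called higher, 28.0% lower and 57.4% in either direction. The median log2 fold change was 2.58 over the members and -0.02 over all genes tested. In ACAT1 KO cells 9 of 10 were higher, where 29.5% of genes were called higher and 60.7% called in either direction, with a median of 2.63 over the members and -0.03 over all genes. Tnfsf12 was called lower in ACAT1 KO cells, where 31.2% of genes were called lower. Upper-quartile scaling moved the median of all genes by -0.21 in WT and -0.15 in ACAT1 KO cells and gave 3628 genes higher and 6681 lower in WT (4850 and 4638 with TMM) and 3921 and 6560 in ACAT1 KO cells (4871 and 5166 with TMM). LPS and unstimulated libraries did not overlap for 9 members in WT and 10 in ACAT1 KO cells, as for 61.0% and 67.8% of all genes. Under upper-quartile scaling the 9 members were still called higher in both genotypes.

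Among the ligands, Tnf was at 70.1, 40.4 and 58.8 CPM in the WT replicates and at 1641, 2019 and 2049 CPM in the WT LPS replicates. ACAT1 KO cells had it at 132, 75.7 and 67.2 CPM without and 3485, 2597 and 2401 CPM with LPS. Replicate 1 was the highest of the ACAT1 KO libraries in both states, and no LPS library came near an unstimulated one. The rise was 33.7-fold in WT cells (log2 5.07, standard error (SE) 0.305) and 30.8-fold in ACAT1 KO cells (log2 4.95, SE 0.303), with adjusted p = 5.58e-08 and 5.48e-08 by edgeR.

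Tnfsf15 had the largest fold of the members although it started among the lowest. Its level was 1.85, 2.18 and 2.52 CPM in WT and 64.6, 84.8 and 96.3 CPM in WT LPS, a rise of 37.1-fold (log2 5.21, SE 0.190). ACAT1 KO cells went from 2.62, 2.14 and 2.46 CPM to 127, 94.1 and 123 CPM, a rise of 47.4-fold (log2 5.57, SE 0.190). Tnfsf10 also started low, at 1.91, 2.40 and 2.53 CPM in WT and 1.74, 2.84 and 2.54 CPM in ACAT1 KO cells. After LPS Tnfsf10 was at 33.2, 50.4 and 61.1 CPM in WT and 53.1, 61.1 and 49.0 CPM in ACAT1 KO cells, rises of 21.1-fold and 23.1-fold. The unstimulated and LPS libraries did not overlap for either ligand, whereas the genotypes overlapped for both ligands in both states.

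Tnfsf9 rose less, from 55.6, 55.4 and 65.3 CPM to 164, 156 and 189 CPM in WT, and from 65.2, 69.4 and 66.3 CPM to 301, 274 and 271 CPM in ACAT1 KO cells. These were rises of 2.89-fold (log2 1.53, SE 0.0874) and 4.21-fold (log2 2.07, SE 0.0886). All ACAT1 KO LPS libraries exceeded all WT LPS libraries for this ligand. Tnfsf13b rose from 5.996, 5.996 and 7.54 CPM to 9.54, 9.72 and 10.9 CPM in WT cells, 1.54-fold. In ACAT1 KO cells Tnfsf13b began lower, at 4.24, 5.05 and 4.82 CPM, and reached 10.5, 12.4 and 10.4 CPM, 2.36-fold. Without the 3 unstimulated libraries that stood apart, the rise of Tnfsf13b in WT cells was not called (log2 0.39, adjusted p = 0.0553 by edgeR). That fit leaves 1 unstimulated WT library, replicate 3, which had the highest Tnfsf13b level of that group and is assumed to vary like the other groups.

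Tnfsf12 was the exception among the ligands. It was at 5.37, 5.77 and 5.39 CPM in WT and 5.95, 5.62 and 5.27 CPM in WT LPS, and these groups overlapped (log2 fold change 0.03, SE 0.107, adjusted p = 0.855 by edgeR). Its level in ACAT1 KO cells was 5.94, 5.96 and 6.07 CPM without and 3.93, 5.11 and 4.63 CPM with LPS. These groups did not overlap, and the change was -0.39 on the log2 scale (SE 0.107, adjusted p = 0.00735 by edgeR).

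Among the receptors, Tnfrsf1b and Fas rose the most. Tnfrsf1b was at 137, 135 and 133 CPM in WT and 1867, 1134 and 1286 CPM in WT LPS, a rise of 10.6-fold. In ACAT1 KO cells it was at 127, 134 and 132 CPM without and at 1559.5, 1617 and 1639 CPM with LPS, a rise of 12.3-fold. WT LPS replicate 1 was the highest and replicate 2 the lowest of the 6 LPS libraries for Tnfrsf1b, and the genotypes overlapped. Fas went from 6.83, 7.38 and 6.98 CPM to 91.4, 108 and 88.3 CPM in WT, 13.6-fold (log2 3.76, SE 0.108). Fas in ACAT1 KO cells went from 9.94, 7.65 and 8.23 CPM to 79.9, 76.6 and 77.5 CPM, 9.05-fold (log2 3.18, SE 0.104). The genotypes were in the opposite order in the 2 states for Fas, with ACAT1 KO above WT in every library without stimulation and below it in every library after LPS.

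Tnfrsf11a rose from 32.1, 33.3 and 30.7 CPM to 88.3, 125 and 112 CPM in WT cells, 3.39-fold, and from 27.9, 25.6 and 22.6 CPM to 77.8, 84.9 and 74.8 CPM in ACAT1 KO cells, 3.12-fold. ACAT1 KO libraries lay below WT libraries in both states. Tnfrsf1a had the smallest rise of the receptors. It was at 143, 128 and 127 CPM in WT and 181, 195 and 192 CPM in WT LPS, 1.43-fold, and at 126, 125 and 134 CPM in ACAT1 KO and 159, 159 and 162 CPM in ACAT1 KO LPS cells, 1.25-fold. LPS and unstimulated libraries did not overlap for this receptor in either genotype.

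**Figure D2:**
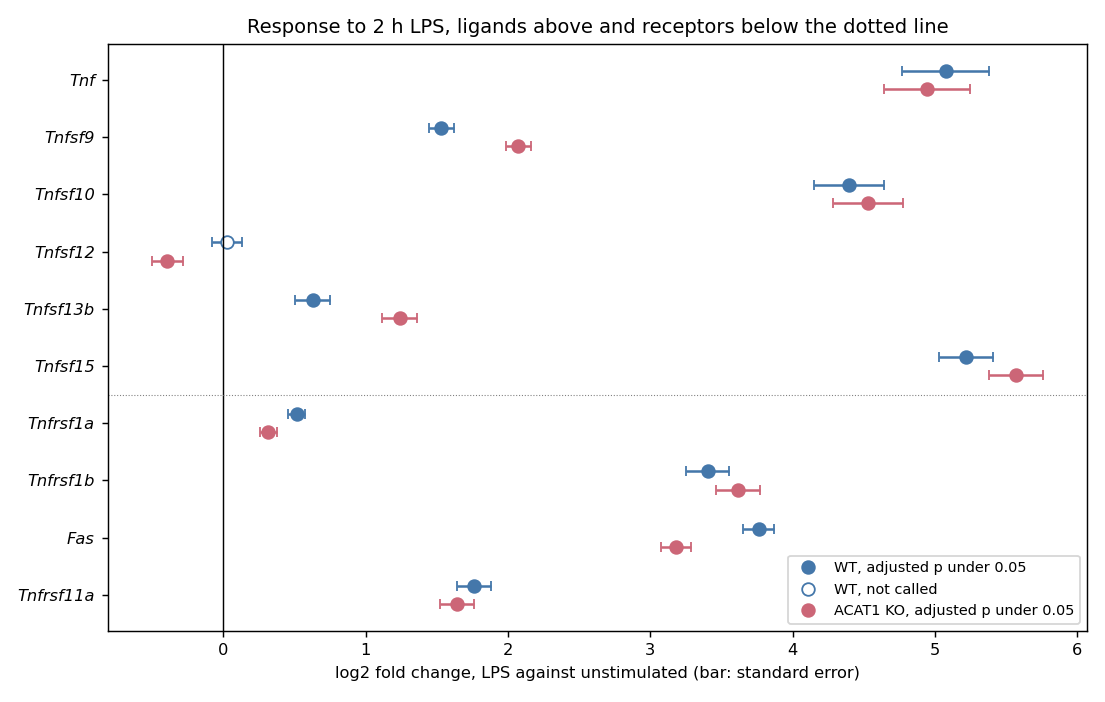
Log2 fold change of LPS against unstimulated cells for each member, WT in blue and ACAT1 KO in red, with bars of 1 standard error. Filled points passed an adjusted p of 0.05 in edgeR's quasi-likelihood test, and the open point is Tnfsf12 in WT cells. Tnf, Tnfsf10 and Tnfsf15 lie above 4 in both genotypes, Tnfrsf1b and Fas between 3 and 4.

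The unequal rise of the TNF receptors changed their ratio. Per kb of exon, the level of Tnfrsf1b divided by that of Tnfrsf1a was 0.654, 0.717 and 0.715 in WT and 0.683, 0.725 and 0.671 in ACAT1 KO libraries. After LPS the ratio was 7.01, 3.95 and 4.54 in WT and 6.68, 6.90 and 6.89 in ACAT1 KO libraries. Means were 0.695 ± 0.0359 and 0.693 ± 0.0283 without stimulation, and 5.17 ± 1.62 and 6.82 ± 0.125 (SD, n = 3 each) after LPS. WT LPS replicate 1 exceeded every ACAT1 KO LPS library and the other WT LPS replicates lay below them, so the genotypes overlapped.

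**Figure D3:**
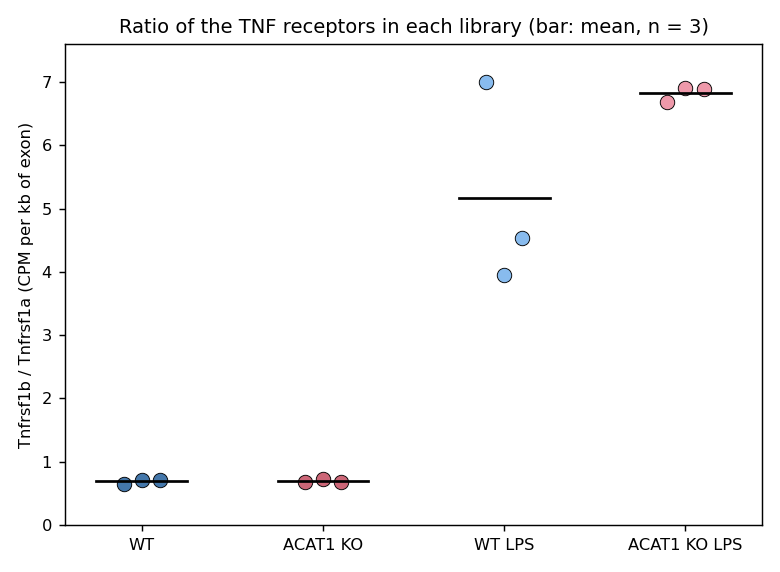
Ratio of Tnfrsf1b to Tnfrsf1a in each library, both as CPM per kb of merged exon, with 3 points per group from replicate 1 to 3 and a bar at the mean. The axis is linear and starts at 0. Unstimulated libraries lie between 0.654 and 0.725 and LPS libraries between 3.95 and 7.01.

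To find out whether these transcripts differed between the genotypes before stimulation, ACAT1 KO was compared with WT among the 6 unstimulated libraries. None of the members passed, 0 of 10 at an adjusted p under 0.05 by the quasi-likelihood test of edgeR, adjusted by Benjamini-Hochberg, where 1.91% of 16440 genes were called. At an unadjusted p under 0.05 there were 4 members, Tnf, Tnfsf9, Tnfsf13b and Tnfrsf11a, against 19.7% of all genes. DESeq2 called 2 members, Tnfsf13b and Tnfrsf11a, both lower in ACAT1 KO cells, where it called 9.96% of all genes. Groups did not overlap for 4 members, Tnfsf12, Tnfsf13b, Fas and Tnfrsf11a, against 25.8% of all genes. Tnf differed by 0.71 on the log2 scale (SE 0.297, adjusted p = 0.253 from edgeR's test), and its groups overlapped. This value rested in part on ACAT1 KO replicate 1, without which it was 0.34 (adjusted p = 0.545 by edgeR). Tnfrsf11a differed by -0.33 (SE 0.0869, adjusted p = 0.110) and Tnfsf13b by -0.46 (SE 0.151, adjusted p = 0.165) by edgeR. Within the 3 libraries that stood apart the difference of Tnf was 0.45 and within the other 3 it was 0.76, fits with a single library of 1 genotype, from which no call is read.

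After LPS 4 members differed between the genotypes. Tnf and Tnfsf9, both ligands, were higher in ACAT1 KO cells, and Tnfrsf1a and Tnfrsf11a, both receptors, were lower (adjusted p under 0.05 by the quasi-likelihood test of edgeR, adjusted by Benjamini-Hochberg). Among all 16483 genes tested 15.1% were called, 5.93% higher and 9.12% lower. Groups did not overlap for 6 members, these 4 with Tnfsf12 and Fas, against 37.6% of all genes. The median log2 fold change was 0.35 over the ligands, -0.25 over the receptors and -0.0041 over all genes.

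Tnf was 1.51-fold higher in ACAT1 KO LPS than in WT LPS cells (log2 0.59, SE 0.147, adjusted p = 0.0333 by edgeR), the lowest ACAT1 KO library at 2401 and the highest WT library at 2049 CPM. Tnfsf9 was 1.68-fold higher (log2 0.75, SE 0.0823, adjusted p = 0.00284 by edgeR), the lowest ACAT1 KO library at 271 and the highest WT library at 189 CPM. Tnfrsf1a was lower by a small amount, -0.22 on the log2 scale (SE 0.0517, adjusted p = 0.0263 by edgeR), with all ACAT1 KO libraries within 159 to 162 CPM. Tnfrsf11a differed by -0.43 (SE 0.117, adjusted p = 0.0430 by edgeR). Fas missed the threshold (log2 fold change -0.27, SE 0.0777, adjusted p = 0.05004 by edgeR), as did Tnfsf15 (0.51, SE 0.159, adjusted p = 0.0692). DESeq2 placed both of these under 0.05, at 0.0264 and 0.00969. Differences of Tnfsf10, Tnfsf12, Tnfsf13b and Tnfrsf1b had adjusted p between 0.153 and 0.547 in edgeR's test.

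**Figure D4:**
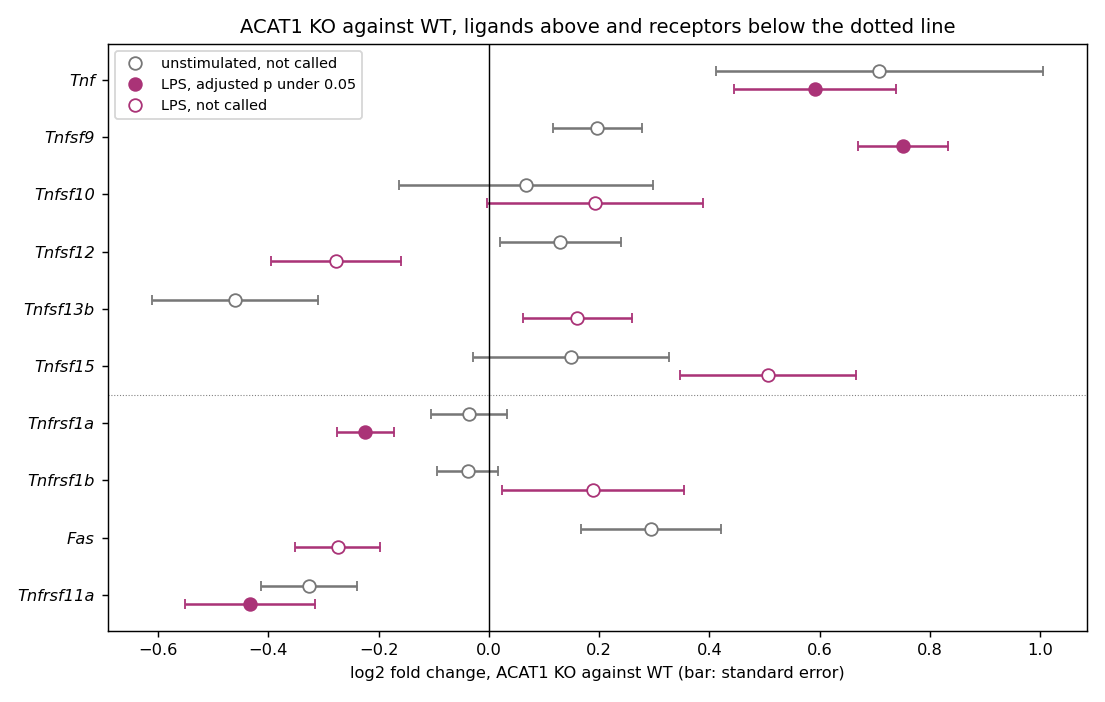
Log2 fold change of ACAT1 KO against WT for each member, unstimulated in grey and after LPS in purple, with bars of 1 standard error. Filled points passed an adjusted p of 0.05 in edgeR's quasi-likelihood test. The filled points are Tnf and Tnfsf9 to the right of 0 and Tnfrsf1a and Tnfrsf11a to the left, all of them after LPS.

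These calls were not equally stable. Tnfsf9 was called when each of the 6 LPS libraries was left out in turn, with log2 fold changes of 0.70 to 0.84. Tnf was called in 1 of the 6, without ACAT1 KO LPS replicate 3 (adjusted p = 0.0398 by edgeR), and the other 5 gave adjusted p of 0.0501 to 0.0750 and log2 fold changes of 0.42 to 0.66. Tnf also lost its call in the fit of all 12 libraries (adjusted p = 0.174). Tnfrsf1a and Tnfrsf11a were each called in 1 of the 6, both without WT LPS replicate 1, and each kept its direction in all 6. Tnfrsf11a changed by -0.32 at the least, without WT LPS replicate 2, where its adjusted p was 0.122, and it missed the threshold under upper-quartile scaling (-0.40, adjusted p = 0.0502). Whether Tnfrsf1b was called turned on WT LPS replicate 1, its highest library. Without that library its difference went from 0.19 to 0.43 and was called (SE 0.0768, adjusted p = 0.0133 by edgeR). Fas was called in the same fit (-0.31, adjusted p = 0.0467), which made 5 members with Tnf not among them. Without WT LPS replicate 3, Tnfsf15 (0.65, adjusted p = 0.0452 by edgeR) and Fas (-0.32, adjusted p = 0.0438) were called. The count of members called fell to 1 without WT LPS replicate 2, ACAT1 KO LPS replicate 1 or ACAT1 KO LPS replicate 2, and to 2 without ACAT1 KO LPS replicate 3. Over all genes those 4 fits called 867 to 1183, against 2481 with all 6 libraries.

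**Figure D5:**
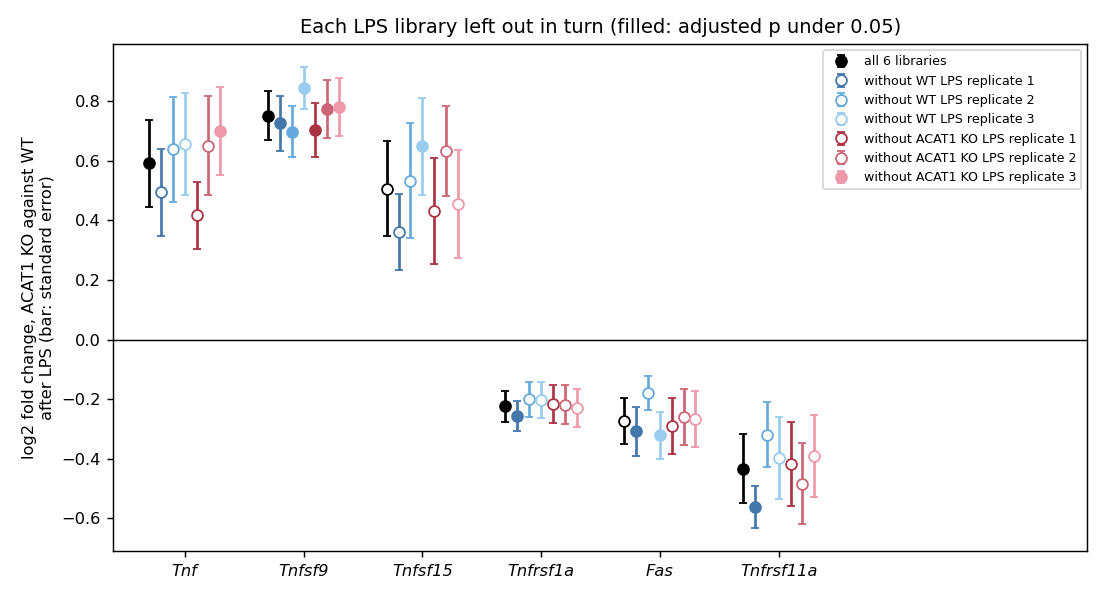
Log2 fold change of ACAT1 KO against WT after LPS for 6 members, with all 6 libraries in black and with each library left out in colour, with bars of 1 standard error. Filled points passed an adjusted p of 0.05. Tnfsf9 is filled in all 7 fits, and no point of these members crosses 0.

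Levels of the receptor for LPS and of its partner differed too after LPS. Tlr4 was lower in ACAT1 KO LPS than in WT LPS cells (log2 fold change -0.26, adjusted p = 0.0477), and Cd14, which passes LPS to that receptor, was higher (0.40, adjusted p = 0.00736), both from edgeR's quasi-likelihood test. Without stimulation that test called neither Tlr4 (-0.02, adjusted p = 0.905) nor Cd14 (0.22, adjusted p = 0.216). Tlr4 averaged 65.0 CPM in WT, 63.4 in ACAT1 KO, 26.0 in WT LPS and 21.4 CPM in ACAT1 KO LPS libraries. Among the 10 macrophage markers 3 were higher after LPS, Cd14, Itgam and Spi1, and 2 lower, Tlr4 and Fcgr1. Of all genes 5.93% were called higher and 9.12% lower in that comparison. Without stimulation 2 of the 10 were called by that test, both lower in ACAT1 KO cells, against 1.91% of all genes. These were Adgre1 (log2 fold change -0.78, adjusted p = 0.0368 by edgeR) and Fcgr1 (-0.69, adjusted p = 0.0124 by edgeR). The part of these markers in the differences of the members was not tested.

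Whether LPS acted differently on the members in ACAT1 KO than in WT cells was tested as the interaction of genotype and LPS over all 12 libraries. No member was called, 0 of 10 by the quasi-likelihood test of edgeR, adjusted by Benjamini-Hochberg, where 0.187% of 16535 genes were called, 8 with a positive and 23 with a negative difference between ACAT1 KO and WT (10 and 13 with upper-quartile scaling, 126 and 175 by DESeq2). At an unadjusted p under 0.05 there were 5 members, Tnfsf9, Tnfsf12, Tnfsf13b, Tnfrsf1a and Fas, against 8.92% of all genes, and DESeq2 called 3, Tnfsf9, Tnfsf13b and Fas, where it called 1.82% of all genes. Deviations from the group mean of libraries with the same number in the 2 states of a genotype correlated in all 6 pairs, so the interaction was also fitted with that number as a block. With the block 3 members were called, again Tnfsf9, Tnfsf13b and Fas, where 1.74% of all genes were called. The response of Tnfsf9 was larger in ACAT1 KO cells by 0.54 on the log2 scale (SE 0.0784, adjusted p = 0.0172 by edgeR with the block). That of Tnfsf13b was larger by 0.60 (SE 0.106, adjusted p = 0.0336 by edgeR with the block). The response of Fas was smaller, with a difference of -0.57 (SE 0.1004, adjusted p = 0.0347 by edgeR with the block). When each same-numbered pair of a genotype was left out of the blocked fit in turn, Tnfsf9 was called in 3 of 6 fits, Fas in 1 (without the WT pair numbered 3) and Tnfsf13b in 0, with adjusted p of up to 0.0811, 0.129 and 0.146 by edgeR. Their differences stayed within 0.48 to 0.59, -0.63 to -0.47 and 0.55 to 0.67. For Tnf the difference between the responses was -0.13 without the block (SE 0.363, adjusted p = 0.978), and its sign turned when WT replicate 2 (0.06) or ACAT1 KO replicate 1 (0.23) was left out.

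Other genes of the pathway were counted by lists, in which rose, fell, higher and lower mean calls by edgeR. Over all genes tested, LPS gave 29.3% called higher and 28.0% lower in WT cells, and 29.5% and 31.2% in ACAT1 KO cells. Between the genotypes after LPS 5.93% were called higher and 9.12% lower in ACAT1 KO cells, and without stimulation 1.91% were called. Of 12 further TNF superfamily ligands, 6 were listed and tested in both states. With LPS the cytokine gene Lta rose in WT (log2 1.28) and ACAT1 KO cells (1.77), while Tnfsf14, the ligand LIGHT, fell (-0.88 and -0.48), as did Eda in ACAT1 KO cells (-0.65). Medians of this list were -0.33 and -0.31. After LPS 8 were tested between the genotypes and 2 were higher in ACAT1 KO cells, Tnfsf4, the ligand OX40L (1.17, SE 0.268), and Lta (0.55, SE 0.131), with a list median of 0.21. Lta stayed at 1.44 to 1.77 CPM in WT LPS and 2.23 to 2.54 CPM in ACAT1 KO LPS libraries.

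Of 24 further receptors, 14 were tested for the response to LPS, and 4 rose and 6 fell in each genotype. Medians of this list were -0.14 in WT and -0.20 in ACAT1 KO cells. Cd40, the costimulatory receptor on antigen-presenting cells, rose 48.4-fold in WT and 54.4-fold in ACAT1 KO cells, more than any of the 10 members. Tnfrsf12a, the receptor of Tnfsf12, rose by 2.14 and 1.95 on the log2 scale, and Relt fell by 1.90 and 2.03. After LPS 0 of 13 were called higher in ACAT1 KO cells and 3 were called lower, Tnfrsf23 (-0.61), Tnfrsf22 (-0.72) and Tnfrsf12a (-0.31), with a list median of -0.07. Cd40, at 0.54, missed the threshold (adjusted p = 0.0531 by edgeR). Tnfrsf22 and Tnfrsf23 are close paralogs whose reads the counting could have split, and their values are uncertain.

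All 29 genes of TNF receptor signaling were tested, and 22 rose and 2 fell with LPS in WT cells, and the median log2 fold change was 0.99. For ACAT1 KO these counts were 22 and 5, with a median of 0.78. The most significant rises were those of Cflar, an inhibitor of Casp8 (3.80 and 3.89), Nfkb1, an NF-kB subunit precursor (2.25 and 2.32), and Tnip1, a partner of the inhibitor Tnfaip3 (3.21 and 2.98). The adaptor Fadd fell in both genotypes (-0.25 and -0.35). Between the genotypes after LPS 3 were higher in ACAT1 KO cells, Traf1 (0.40), Rbck1 (0.36) and Birc2 (0.33), and 5 lower, among them Traf3 (-0.62), Casp8 (-0.52) and Traf5 (-0.66), with a list median of -0.0077. Traf1 and Traf3 encode adaptors and Casp8 the initiating caspase of the death receptors. Without stimulation 1 was called, Tab1, lower in ACAT1 KO cells (-0.58).

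The fourth list held genes of TNF shedding and of the control of its mRNA, of which 16 of 17 were tested. With LPS 9 rose and 5 fell in WT cells, with a median of 0.85, and 10 rose and 5 fell in ACAT1 KO cells, with a median of 0.81. Rhbdf2, which carries Adam17 to the surface, rose by 1.51 and 1.59 on the log2 scale, and Mapkapk2, a kinase that acts on Tnf mRNA-binding proteins, by 1.77 and 1.78. The RNA-binding protein genes Zfp36l2 (-2.03 and -2.43) and Zfp36l1 (-1.84 and -2.10) fell. Rc3h1, which encodes the mRNA decay factor Roquin, rose in WT cells (2.03), as did Rc3h2 (1.41) and Zc3h12a (3.13). Zfp36 was not called there (0.14, adjusted p = 0.563 by edgeR). After LPS 1 gene was higher in ACAT1 KO cells, Sppl2a, an intramembrane protease of Tnf (0.44). Lower were 2, Zfp36l2 (-0.32) and Rc3h1 (-0.32), and the list median was -0.00089.

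Genes were also ranked by how close their log2 CPM, centred over the 12 libraries, lay to that of each member, as the root mean square distance over the 12 libraries among 16535 genes. Nearest to Tnf were Slc39a2 (0.342), the chemokine gene Ccl4 (0.360) and the adhesion molecule gene Icam1 (0.383). The nearest gene was Cd40 for Tnfsf15 (0.203), Cd274, which encodes PD-L1, for Tnfsf10 (0.234), Jak2 for Fas (0.209) and Icosl for Tnfrsf1b (0.190). Fam219a was nearest to Tnfsf9 (0.133), Parp10 to Tnfrsf11a (0.133), Dmrt2 to Tnfsf13b (0.123), Tmem138 to Tnfsf12 (0.0911) and Mfn2 to Tnfrsf1a (0.0600). Distances of members that moved little were small in general, and these values describe likeness over libraries that share the LPS treatment.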

How the data were processed

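RNA was extracted with a column kit and sequenced from directional libraries of 12 J774A.1 samples. The submitters' processing notes name Trimmomatic 0.33, HISAT2, StringTie and GRCm38. The authors deposited raw counts of each gene as whole numbers, unstimulated and LPS libraries apart, and neither the step that gave them nor its use of strand is given in the sources used here. Also in the tables are 12 further columns, 1 per library, of log2 values that the authors computed, and the authors' own comparisons (log2 fold change, t and B statistics, p-value and adjusted p-value), none of which were used.

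The members and gene lists were chosen with earlier results of these data known. After removal of 59 and 57 repeated entries, 17544 genes (unstimulated) and 17874 genes (LPS) remained, each with at least 4 counts in at least 5 of 6 libraries. Libraries of a group differed by more than sampling noise (chi-square per degree of freedom of 32.1 or more over 12 pairs). Groups were taken from the labels.

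Genes were filtered by filterByExpr and tested with edgeR 4.0.16 in R 4.3.3 (TMM, quasi-likelihood, two-sided, Benjamini-Hochberg over all genes tested, called under 0.05). Genotypes were compared within each state over 6 libraries. Responses to LPS and the interaction were fitted over 12 libraries with 4 group means. CPM for display used TMM over the 16699 genes of both tables. Counting error is small at these totals, and the 3 samples per group limit the precision. Libraries with the same number in the 2 states of a genotype deviated together (r of 0.139 to 0.454 over 6 pairs and 11961 genes, against -0.344 to 0.0977 for different numbers), a pairing the labels do not state. Deviations from a group mean cancel within the group, so the lower r for different numbers is not separate evidence for the pairing. Alternatives were DESeq2 1.42.0, other normalizations and filters, the block, a term for the libraries that stood apart, all 12 libraries in 1 fit and each library left out, with subsets of the libraries that stood apart, and the block with each pair left out, added after the data were seen. Scripts were tested on simulated data. Coordinates and exon lengths are from the GENCODE M21 annotation of GRCm38, which matched 17521 and 17849 genes, and promoters from RefSeq. Named genes are the members, Acat1, up to 3 genes per list and direction with the smallest p among those called, the 3 nearest genes of Tnf and the nearest of each other member. The macrophage markers, Tlr4 and Cd14 included, come from a fixed list, and the single markers were named after their values were seen. Zfp36 and Zc3h12a were likewise named after their values were seen, as was the LPS response of Rc3h1.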

Additional observations from a re-analysis of the deposited data

Results flagged for a closer look

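The interaction of genotype and LPS, the test of the difference itself, called no member in the main fit by edgeR, which had no block. With the replicate number of each genotype as a block, it called 3 members. That block rests on a pairing inferred from these data, which the labels do not state. Tnfsf9 had a difference of 0.54 on the log2 scale (ACAT1 KO minus WT), Tnfsf13b of 0.60 and Fas of -0.57, with adjusted p = 0.0172, 0.0336 and 0.0347 from edgeR's quasi-likelihood test. Without the block the differences were 0.54, 0.61 and -0.58, with adjusted p = 0.110, 0.202 and 0.129 from that test. DESeq2 without the block called all 3, at adjusted p = 0.00339, 0.0365 and 0.0171. With the block and each same-numbered pair of a genotype left out in turn, an alternative chosen after seeing the data, Tnfsf9 was called in 3, Fas in 1 and Tnfsf13b in 0 of 6 fits by edgeR, and each kept its direction in all 6.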

How the results depend on the processing

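Over the alternatives other than the block with a pair left out, 862 of 910 values of members kept direction and call, 19 lost and 15 gained a call and 14 turned sign. That total includes the responses to LPS and values without a call. Most losses fell on the genotype calls after LPS, in 7 of 13 alternatives for Tnf, 6 for Tnfrsf11a, 5 for Tnfrsf1a and 0 for Tnfsf9. Without stimulation the genes called were 1638 by DESeq2 (2 members), 475 with at least 10 counts in every library, 664 with a term for the libraries that stood apart, 1353 in 1 fit of 12 libraries (1 member, Tnfsf13b), 66 in the 3 libraries with fewer antisense counts and 7 to 522 with a library left out, against 314. For the interaction they were 301 by DESeq2 (3 members), 69 with that term, 2 without those 3 libraries and 2 to 41 with a library left out, against 31. After LPS they were 867 to 2245 (1 to 5 members) with a library left out. For the interaction, the block of the number within each genotype gave 288 genes (3 members). The genotype comparisons within a state used another block, which joined libraries of the same number across the genotypes. It gave 151 genes without stimulation, and after LPS it left Tnf at an adjusted p of 0.0699 by edgeR. Across genotypes, libraries with the same number did not deviate together throughout. Without stimulation r was 0.745 for numbers 2 and 3 but -0.412 for number 1, and after LPS it was -0.108 to 0.173. The cause was not tested. The block of same-numbered libraries changed no call of a member's response to LPS.

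Signs turned for Tnfsf10 without stimulation (-0.25 in the 3 libraries with fewer antisense counts, -0.083 to 0.23 with a library left out), after LPS (-0.017 to 0.41 with a library left out) and in the interaction (-0.076 to 0.34 with a library left out). They turned for Tnfrsf1a without stimulation (0.031 with fewer antisense counts, -0.065 to 0.0090 with a library left out), Tnf in the interaction (-0.31 to 0.23 with a library left out) and the response of Tnfsf12 in WT cells (-0.18 with upper-quartile scaling, -0.0017 in the 6 WT libraries alone, -0.018 to 0.071 with a library left out). None of these was a call, and the cause was not tested. Of 364 counts of called genes in the pathway lists, 31 moved by over 1.5 times. With 3 samples per group, smaller differences between the genotypes than those called may have gone undetected.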
